A study of Homo sapiens with 7 samples.

Results

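L-540 is an established cell line derived from Hodgkin lymphoma (HL), and its expression profile was set against those of the other HL cell lines profiled with it, HDLM-2, L-428, SUP-HD1, KM-H2, U-HO1 and L-1236. The rule names the line and uses no measured value, and L-540 is 1 of 7 samples. Each line was measured with 1 Affymetrix array of 54675 probe sets hybridised with cRNA made from total RNA. The labels give no treatment, time point or genotype for any line and call all of them Hodgkin lymphoma cell lines. No line was replicated, so that no test between lines could be made and every comparison below describes these 7 arrays. The arrays came from 2 laboratories and the sources used here do not say which line was run where, so that laboratory and line cannot be told apart.

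The malignant Hodgkin/Reed-Sternberg (HRS) cells of HL mostly descend from B-cells whose B-cell gene program has been lost, and they live on permanent NFkB and JAK-STAT signalling while secreting cytokines and chemokines that attract other immune cells. A minority of HL cell lines descends from T-cells, and L-540 and HDLM-2 are generally counted among these. Cytotoxic T-cells and NK-cells kill their targets with perforin and granzymes, proteases that are stored in granules and released at the contact with the target cell.

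Expression levels are given on the log2 scale of the deposited data, on which a difference of 1 is a 2-fold difference. A level counted as above background when it exceeded the value that 95% of 107 probe sets for olfactory receptors stayed under on the same array, genes that lymphoid cells are not known to use. This background lay at 4.51 in L-540 and between 4.49 and 5.59 in the other lines, with L-1236 highest. Of 14474 genes above background in at least 1 line, 11443 were so in L-540. Where 1 gene was measured by several probe sets, their differences of L-540 from the mean of the other lines had a pooled SD of 0.37 over 2438 genes, which serves here as the only measure of technical spread. It covers only probe sets above background on every array. For gaps between L-540 and 1 other line, which are a different quantity, it is only a rough guide. Over all genes the median difference of L-540 from the mean of the other lines was 0.05, and -0.09 after levels below background were raised to it. Compared across the 14474 genes, which are not independent replicates, L-540 had Pearson's r of 0.84 with HDLM-2, 0.81 with L-428 and with SUP-HD1, 0.78 with KM-H2, 0.77 with U-HO1 and 0.75 with L-1236. L-1236 had a narrower spread of levels than the other lines (SD 1.88 against 2.15 in L-540), and on the U-HO1 array ACTB read 2.11 higher at its 3′ end than at its 5′ end, against 0.37 in L-540. The part of these arrays in the results was not tested, beyond leaving each line out.

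To find the genes that set L-540 apart, levels below background were raised to the background of their array, and genes were called where L-540 lay at least 2 (4-fold) above the highest or below the lowest of the other lines. Of the 14474 genes, 44 (0.304%) lay above all other lines in this way and 28 (0.193%) below. The same count for the other lines ran from 34 in L-428 to 93 in KM-H2 above, and from 9 in HDLM-2 and L-428 to 52 in L-1236 below. Without HDLM-2 there were 69 genes above, without L-1236 there were 73, and without L-1236 and U-HO1 together 89 above and 53 below. At any distance, L-540 had the highest level of the 7 lines and was above background for 1990 genes (13.7%), and it had the lowest level with all other lines above background for 602 genes (4.16%). Of the 44 genes above, 17 were above background in no other line and 6 in all of them. Of the 28 genes below, 19 were below background in L-540, so that for these genes the size of the difference is a lower bound. Several probe sets above background in a line were available for 16 genes above and 22 below. They pointed the same way in 16 and 18 of these genes, the exceptions being GNG2, KRT7, NEK6 and SMARCA2. All of them lay at least 2 from all other lines in only 5 of the 16 genes above and 3 of the 22 below.

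**Figure D1:**
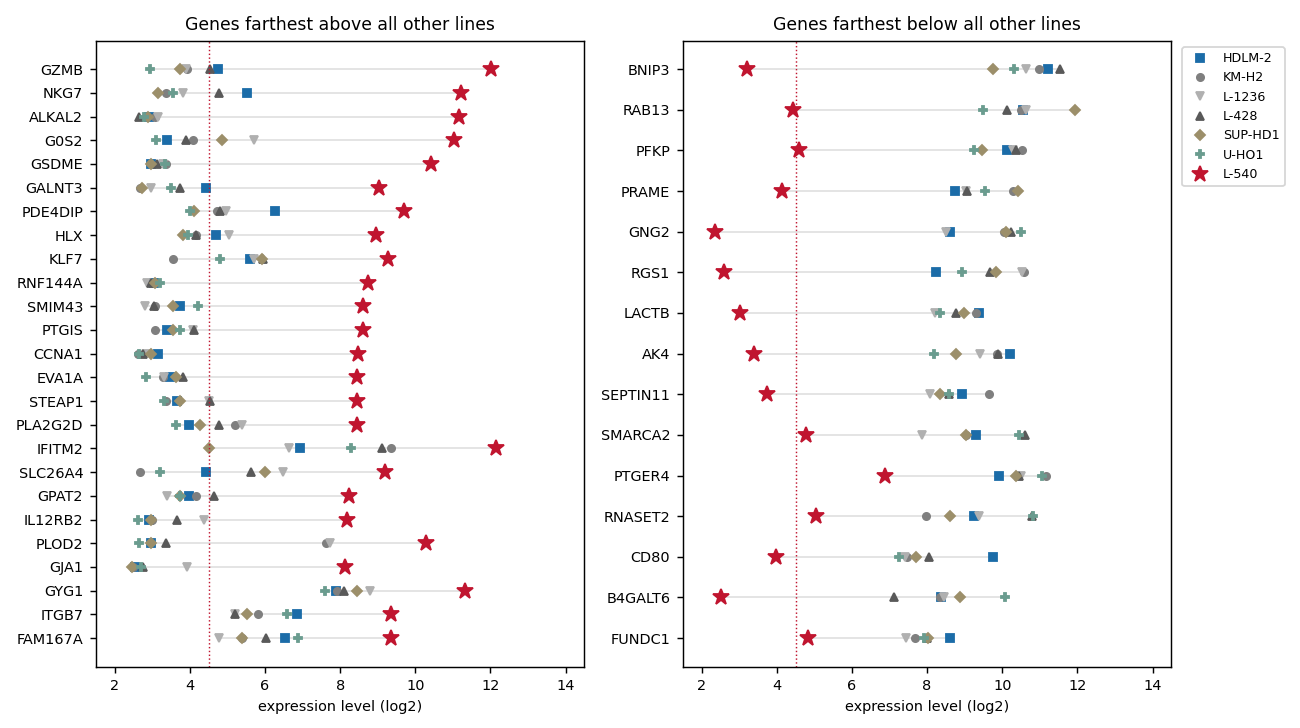
Expression level (log2) in each of the 7 lines for the 25 genes farthest above (left) and the 15 genes farthest below (right) all other lines in L-540, ordered by that distance. Stars are L-540, the other symbols are the other lines, and the dotted line is the background of the L-540 array, 4.51. GZMB, NKG7, ALKAL2 and G0S2 stand above 11 in L-540, and BNIP3 stands at 3.20.

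With levels below background raised, the gene farthest above the other lines was GZMB, which encodes granzyme B, the protease that triggers apoptosis in target cells of cytotoxic lymphocytes. Its level was 12.01 in L-540, against 4.75 in HDLM-2, 4.54 in L-428, 3.73 in SUP-HD1, 3.91 in KM-H2, 2.94 in U-HO1 and 3.90 in L-1236. GZMB was thus below background in every other line, and L-540 was at least 85.6-fold higher. NKG7, a membrane protein of cytotoxic granules, followed with 11.22 in L-540. It measured 5.52 in HDLM-2, 4.77 in L-428, 3.15 in SUP-HD1, 3.36 in KM-H2, 3.56 in U-HO1 and 3.82 in L-1236, leaving L-540 at least 49.5-fold higher. For both genes L-540 stood clear of all other lines. PRF1, which encodes perforin, the pore-forming protein that works together with granzymes, showed another pattern. It was high in L-540 at 11.34 and in HDLM-2 at 11.08, and lay between 4.01 and 6.19 in the other lines. L-540 and HDLM-2 therefore differed at PRF1 by less than the spread between probe sets. GZMH, a further granzyme, had 7.14 in L-540 and 5.63 or less elsewhere. Of the 20 cytotoxic granule genes, 14 were above background in a line and their median difference from the other lines was 0.91, the largest of the 37 gene lists. It was not the largest without KM-H2 (0.89), without probe sets that can match several transcripts (0.78) or without L-1236 and U-HO1, where it fell to 0.41. L-540 was highest for 6 of the 14, beside 13.7% of all genes, with CST7, an inhibitor of granule cathepsins, and the lysosomal LAMP1 besides those named, although LAMP1 led by 0.05, within the spread between probe sets. GZMM and SERPINB9, the natural inhibitor of granzyme B, were not above background in L-540, and SERPINB9 reached 9.0 in L-428 and 9.74 in SUP-HD1.

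The sequence before the start of GZMB is shown because this gene had the largest distance from the other lines after raising, and RUNX letters are marked because RUNX factors guide T- and NK-cell development. It covers 250 bases before to 50 after the start from RefSeq, at chr14:24634141-24634440 of GRCh38.p14 on the minus strand, and the capitals mark the letters TGTGGT, the core recognised by RUNX proteins, on either strand. These letters occurred 2 times, and the stretch held 1 CG pair.
GZMB: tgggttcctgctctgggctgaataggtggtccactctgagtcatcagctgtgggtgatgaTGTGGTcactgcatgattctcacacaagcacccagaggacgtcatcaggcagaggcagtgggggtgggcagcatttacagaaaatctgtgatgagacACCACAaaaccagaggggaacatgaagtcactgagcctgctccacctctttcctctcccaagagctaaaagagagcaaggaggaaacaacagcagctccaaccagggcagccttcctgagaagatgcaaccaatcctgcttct
The RUNX letters were found in 9.38% of the 32 promoters available for the genes above, in 7.69% of 26 for the genes below, and in 9.85% of the 11535 for all genes above background. RUNX2 itself had 10.95 in L-540 and 7.22 to 10.36 in the other lines.

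NK-cell receptors were measured at low levels. L-540 had 12 of 16 above background and was highest for 6, beside 13.7% of all genes, and the median difference was 0.64, or 0.18 after levels below background were raised. L-1236 had a slightly larger median difference for this list, 0.675, with 6 of 16 above background. KLRB1, the receptor CD161, and KLRF1, the activating receptor NKp80, each had 6.70 in L-540 and at most 3.66 elsewhere, so that both were above background in L-540 alone. CD160 measured 6.85 in L-540 and 5.43 in U-HO1, and 4.01 or less in the remaining lines. KIR2DL4 had 6.20, against 3.31 to 5.09. KLRB1 and KLRF1 led the deposited levels by 3.04 and lay 1.11 above the L-1236 background of 5.59, whereas CD160 led by 1.42 and KIR2DL4 by 1.11. KLRG1 and SLAMF7, a checkpoint and an activating receptor, were below background in L-540.

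**Figure D2:**
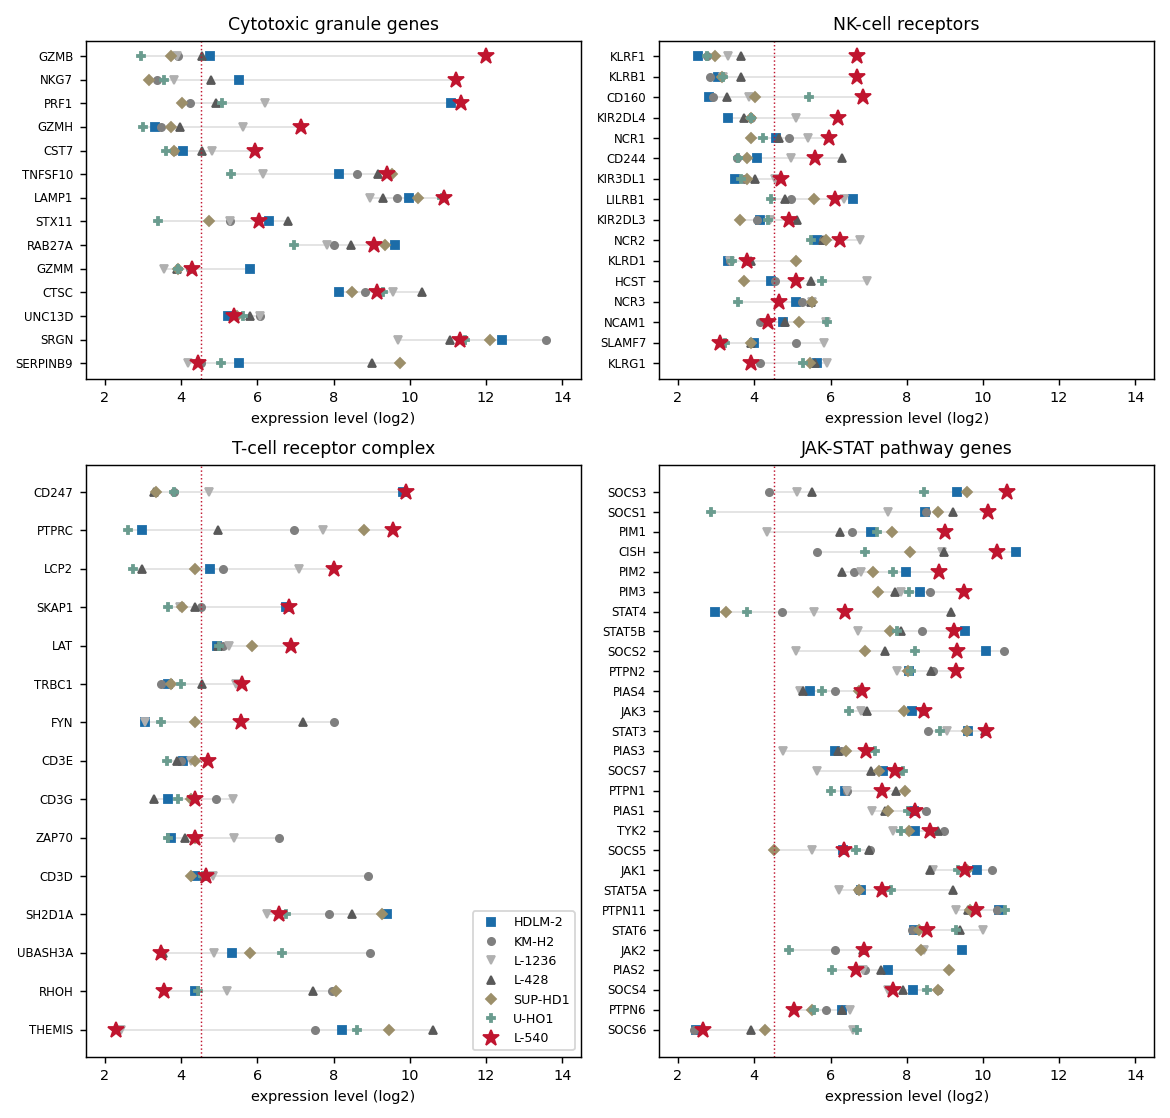
Expression level (log2) in each line for the genes above background in 4 lists, cytotoxic granule genes (14), NK-cell receptors (16), T-cell receptor complex genes (15) and JAK-STAT pathway genes (28), ordered by the difference of L-540 from the mean of the other lines. Stars are L-540 and squares HDLM-2, and the dotted line is the L-540 background. PRF1 and CD247 are high in L-540 and HDLM-2, whereas GZMB and NKG7 are high in L-540 alone.

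The T-cell receptor (TCR) complex was incompletely represented in L-540. CD247, the zeta chain that carries the signal of the TCR and of several NK-cell receptors, had 9.90 in L-540 and 9.81 in HDLM-2, but 3.28 in L-428, 3.35 in SUP-HD1, 3.82 in KM-H2, 3.82 in U-HO1 and 4.74 in L-1236. Its second probe set did not share this pattern, with a difference of -0.28. No value is given here for the antigen-binding chains of the receptor. The CD3 chains, which form the complex with them and CD247, were near background. CD3E had 4.71, CD3D 4.65 and CD3G 4.37, while KM-H2 had 8.89 for CD3D. LCP2, an adaptor of TCR signalling, was highest in L-540 at 8.0, and so was the membrane adaptor LAT at 6.89. PTPRC, the phosphatase CD45, had 9.57 in L-540 and 2.61 to 8.81 in the other lines, with 2.97 in HDLM-2. At the other end was THEMIS, a regulator of thymocyte selection, with 2.30 in L-540 and 2.42 in L-1236 but 8.22 in HDLM-2, 10.61 in L-428, 9.45 in SUP-HD1, 7.52 in KM-H2 and 8.62 in U-HO1. L-540 led 7 of 15 genes of this list, beside 13.7% of all genes. The median difference of 0.68 turned to -0.23 when levels below background were raised and to -0.06 without probe sets that can match several transcripts, and was 1.33 without KM-H2. Among T-cell surface genes, of which 8 of 16 were above background in L-540, CD2 had 7.28 in L-540 and 8.95 in HDLM-2, and at most 4.86 elsewhere. HAVCR2, the receptor TIM-3, had 6.78 in L-540, 6.33 in HDLM-2 and at most 4.81 elsewhere. CD4 was at 7.30, CD8A at 3.99 and LAG3 at 3.99, the last against 9.13 in HDLM-2. The list's median difference was 0.30, or -0.14 with levels below background raised, and L-540 was highest for 5 of 16 genes, beside 13.7% of all genes.

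The transcription factors of T- and NK-cells had no common direction, with a median difference of 0.26 over 25 genes. HOPX, a homeodomain protein of effector lymphocytes, had 11.79 in L-540, below SUP-HD1 at 12.19 and above HDLM-2 at 10.17. PRDM1, the repressor BLIMP1 of terminal differentiation, had 10.18 in L-540, 0.18 above U-HO1, and lay between 5.21 and 6.69 elsewhere. TOX, a chromatin factor of T-cell development and exhaustion, had 8.49 in L-540 and 8.39 in L-428, and at most 4.53 in the others. TBX21, the master factor of type 1 T-cells, was above background at 6.11, below the 6.67 of HDLM-2. In contrast, GATA3, the type 2 counterpart and a known HRS cell factor, was lowest in L-540 at 8.26, with 9.46 to 11.23 in the other lines. RORA, LEF1, MAF and TOX2 were below background in L-540, whereas LEF1 reached 10.12 in KM-H2 and RORA 9.97.

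Individual receptors and ligands of the interleukins stood apart in L-540. IL12RB2, the signalling chain of the IL12 receptor, had 8.17 in L-540, against 2.90 in HDLM-2, 3.66 in L-428, 2.97 in SUP-HD1, 3.0 in KM-H2, 2.61 in U-HO1 and 4.37 in L-1236. No other line was above background, and L-540 was at least 5.98-fold higher. Its partner IL12RB1 was also highest in L-540 at 8.23, against 3.06 to 7.41. OSMR, the receptor of oncostatin M, had 7.27 in L-540 and at most 4.11 elsewhere, and its ligand OSM had 7.21 against 6.62 or less. IL2RB, the shared chain of the IL2 and IL15 receptors, was highest in L-540, 1.24 above SUP-HD1 at 10.76, with 5.36 in U-HO1, and IL2RA, the IL2-specific chain CD25, had 10.80 in L-540, 11.35 in HDLM-2, 9.80 in SUP-HD1 and at most 5.56 in the others. In contrast, IL13RA1, through which HRS cells receive their own IL13, was below background. Its level was 3.20 in L-540, against 10.16 in HDLM-2, 8.54 in L-428, 9.59 in SUP-HD1, 6.41 in KM-H2, 8.16 in U-HO1 and 8.53 in L-1236. All 4 probe sets pointed the same way. The 38 cytokine receptors had a median difference of 0.26, and L-540 was highest for 7 of them and lowest for 2, beside 13.7% and 4.16% of all genes. HDLM-2 had a larger median for this list, 0.94.

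Among 29 cytokines, L-540 was highest for 8 and lowest for 3, beside 13.7% and 4.16% of all genes. The median difference was 0.34, the same as in KM-H2, and it was 0.03 with levels below background raised and -0.06 without L-1236 and U-HO1. IL26, a cytokine of the IL10 family made by T-cells, had 10.70 in L-540, 9.39 in SUP-HD1 and 8.37 in HDLM-2, while it was at 2.91 or less in the remaining lines. Its neighbour in the family, IL22, was highest in L-540 by 0.88. IFNG, the interferon of cytotoxic and type 1 cells, had 6.02 in L-540 and at most 4.26 elsewhere, and thus was above background in L-540 alone. IL1RN, the decoy of the IL1 receptor, had 7.98 against 4.37 to 6.25. The opposite side held inflammatory cytokines that HRS cells commonly make. IL6 had 3.66 in L-540, below background, and 6.02 to 8.94 in the other lines. TNF had 3.82 against 6.30 to 8.10, and LTA, lymphotoxin alpha, had 5.90 against 7.45 to 10.69. These were the 3 cytokines lowest in L-540. Among chemokines the median difference was -0.64 and 9 of 20 genes were above background in L-540. The size of this median was unstable, with -1.34 without SUP-HD1, -1.06 with the mean of all probe sets and -0.24 against the median of the other lines. CXCL10 had 4.15 in L-540 and 3.82 in HDLM-2, both below background, and 6.31 to 11.55 elsewhere. CCL17, the attractant of type 2 and regulatory T-cells that is typical of HL, was lowest in L-540 at 6.64, with 13.07 in HDLM-2. CCL2, a monocyte attractant, was below background in L-540 as in HDLM-2, L-428, KM-H2 and U-HO1. CXCL8 had 10.31 and CCL5 8.09, both within the range of the other lines, and CX3CL1 had 5.03 against 7.11 in HDLM-2. For the 12 chemokine receptors the median difference was -0.41, and L-540 led none. CCR7 at 11.64 and CXCR4 at 11.07 were abundant in L-540, while CCR4, the receptor of CCL17, was below background at 3.38. CXCR3 at 4.65 and CXCR5 at 4.44 lay close to background, and ACKR3, above background in 1 other line, had 2.95.

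The 30 genes known from HRS cells were examined to see how far L-540 carried this profile. It had 28 of them above background, and their median difference was 0.31, or -0.15 without probe sets that can match several transcripts. L-540 had the highest level for 3 genes and the lowest for 6 of the 30, beside 13.7% and 4.16% of all genes. TNFRSF8, the diagnostic receptor CD30, was highest in L-540 at 10.99, against 9.47 in HDLM-2, 8.64 in L-428, 4.36 in SUP-HD1, 7.25 in KM-H2, 9.15 in U-HO1 and 6.13 in L-1236. CFLAR, the inhibitor of death receptor signalling, had 12.18 against 8.90 to 11.36, and 13 of 13 probe sets pointed the same way. JUNB, an AP-1 factor of HRS cells, had 10.87 against 7.50 to 10.36. Of the 6 lowest genes, CD80 stood out. This ligand of CD28 and CTLA4 had 3.99 in L-540, below background, and 9.76 in HDLM-2, 8.05 in L-428, 7.70 in SUP-HD1, 7.47 in KM-H2, 7.26 in U-HO1 and 7.41 in L-1236. CD86, the second ligand of these receptors, was at 9.55 and within the range of the others. CD40, the receptor for helper signals from T-cells, had 6.55 against 8.07 to 9.51. BCL2A1, an antiapoptotic NFkB target, had 4.65 and 5.04 to 11.24 elsewhere. GATA3, IL13RA1 and CCL17, described before, complete the 6.

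**Figure D3:**
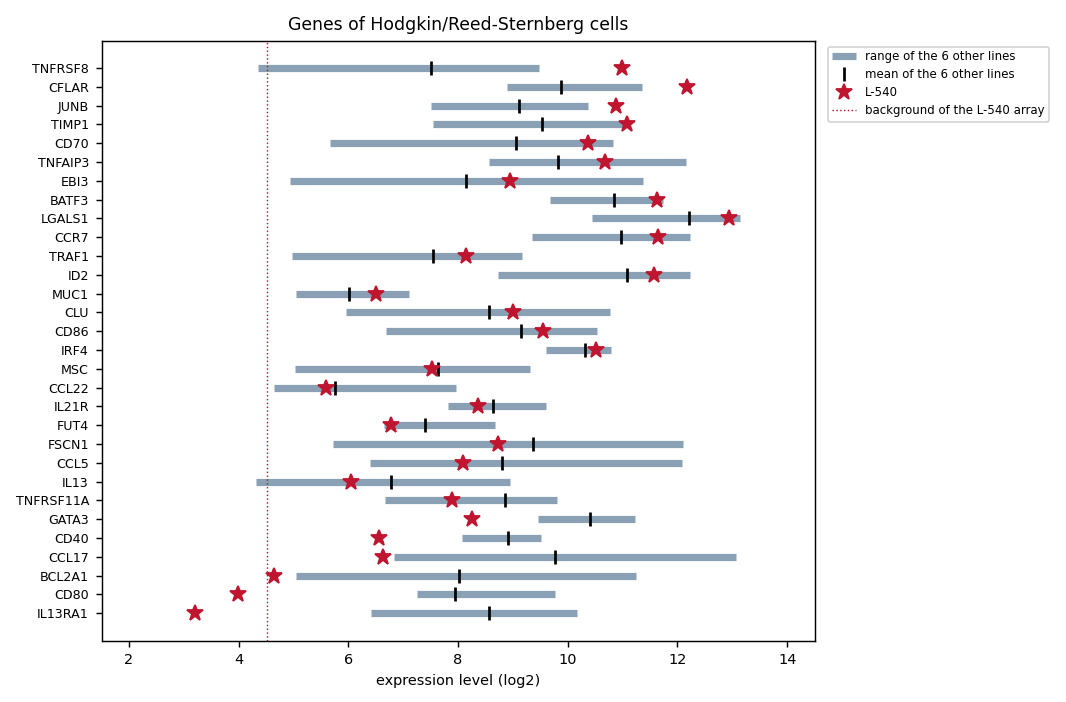
Expression level (log2) of the 30 genes of HRS cells, ordered by the difference of L-540 from the mean of the other lines. Stars are L-540, bars run from the lowest to the highest of the 6 other lines, ticks are their mean, and the dotted line is the L-540 background. TNFRSF8, CFLAR and JUNB lie to the right of the bar, and GATA3, CD40, CCL17, BCL2A1, CD80 and IL13RA1 to the left.

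JAK-STAT pathway genes were mostly on the high side, with 21 of 28 above the mean of the other lines, beside 7654 of all 14474 genes. Of these 28 JAK-STAT pathway genes, 9 were highest in L-540 and 1 lowest, beside 13.7% and 4.16% of all genes, and the median difference was 0.65. SOCS3, an inhibitor of JAK kinases that STAT3 switches on, had 10.63 in L-540, against 9.32 in HDLM-2, 5.52 in L-428, 9.59 in SUP-HD1, 4.38 in KM-H2, 8.45 in U-HO1 and 5.11 in L-1236. SOCS1, its relative, had 10.12 against 2.87 to 9.21. The kinases PIM1, PIM2 and PIM3, targets of STAT factors that support survival, were each highest in L-540, at 9.0, 8.84 and 9.49. CISH, a target of STAT5, had 10.37 and was exceeded by HDLM-2 at 10.86. STAT3 at 10.09 and JAK3 at 8.45 led by less than the spread between probe sets. PTPN6, a phosphatase acting on JAK kinases, was lowest in L-540 at 5.03. The NFkB pathway had a median difference of 0.48 over 25 genes, and 0.06 without probe sets that can match several transcripts or 0.10 without L-1236. RELA was highest in L-540 at 8.14, and REL, which is often gained in HL, was at 6.72 with 6.23 to 10.60 in the other lines. CYLD, a negative regulator of NFkB, was at 9.04 in L-540 and in HDLM-2, NFKBIZ at 7.95 and MAP3K8 at 4.97. Among the 35 TNF receptors and ligands, with a median of -0.25, TNFRSF1B, the TNF receptor of lymphocytes, had 7.69 in L-540 and at most 5.52 elsewhere and was 1 of the 44 genes. TNFRSF9, the receptor 4-1BB, was at 11.32 in L-540 and 11.30 in HDLM-2.

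Adhesion genes were often on the high side. Of 33 costimulation, checkpoint and adhesion genes, 11 were highest in L-540 and 2 lowest, beside 13.7% and 4.16% of all genes. The median difference was 0.59, and 0.19 without probe sets that can match several transcripts. ITGB7, the integrin chain that directs lymphocytes to the gut, had 9.34 against 5.20 to 6.84. ITGAV, the alpha chain of vitronectin receptors, had 10.2 against 5.87 to 8.41. CD48, the ligand of CD244, had 10.85 in L-540 and 10.30 in KM-H2 but 4.36 in HDLM-2. The hyaluronan receptor CD44 was below background in L-540 at 2.58 as in U-HO1 at 2.36, while the other lines had 6.37 to 9.75, and 8 of 8 measured probe sets pointed the same way. MHC class II genes had a median of -0.14 over 15 genes, all above background and none highest or lowest in L-540. The lowest differences were -1.47 for HLA-DOA, -1.32 for HLA-DMB, -1.32 for HLA-DQB1 and -1.12 for CIITA, the master activator of these genes, although 2 of the 4 measured HLA-DOA probe sets pointed the other way. HLA-DRA was at 10.82 with 7.18 to 13.41 elsewhere. Without L-1236, where the list was lowest, the median was -0.68. MHC class I genes had a median of 0.26 over 19 genes, and HLA-E, the ligand of inhibitory NK-cell receptors, was highest in L-540 at 11.10. ERAP1, a peptidase that trims antigens, had 9.34 with 9.77 in HDLM-2, but its difference from the other lines changed sign with another probe set. ERAP2 and NLRC5 were lower, at 4.51 and 5.09.

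B-cell genes are reduced in HL lines in general. The median difference of 19 surface and receptor signalling genes was -0.25, or 0.08 without probe sets that can match several transcripts. L-1236, SUP-HD1 and U-HO1 had lower medians for this list, at -0.34, -0.31 and -0.31. Of the 19 genes, 11 were above background in L-540 and 3 were highest in L-540, beside 13.7% of all genes. The farthest on the high side was BLK, a kinase of the B-cell receptor. It had 8.08 in L-540, against 2.74 in HDLM-2, 4.81 in L-428, 2.81 in SUP-HD1, 5.99 in KM-H2, 5.61 in U-HO1 and 4.08 in L-1236. FAM167A, the gene next to BLK on chromosome 8, also belonged to the 44, with 9.35 in L-540 and 4.77 to 6.87 elsewhere. CD24, FCER2, BANK1, CR2 and FCRLA were below background, and the immunoglobulin light chain gene IGKC had 4.97, against 8.01 in the highest line. For the 18 B-cell transcription factors the median difference was -0.04, or -0.59 without probe sets that can match several transcripts, and 4 lay at least 2 below the mean of the other lines after raising, as did 244 of all 14474 genes. BCL11A was at 2.41 in L-540 and 3.21 in HDLM-2, both below background, and at 7.33 to 9.70 elsewhere. SPIB had 4.22 in L-540 and 4.37 in L-1236 and 7.10 to 8.74 in the other lines, and POU2AF1 had 2.80. MYBL1 was at 4.97 in L-540 and 8.29 in HDLM-2. TCF4 was lowest in L-540 at 7.77, with 8.94 to 11.55 elsewhere, and all 8 probe sets pointed the same way. TCF3 had 10.98 with 8.93 to 10.51 elsewhere, but without probe sets that can match several transcripts its difference from the other lines was -0.36. TCF12, a further E protein, was 1 of the 28 genes, at 4.71 against 7.0 to 8.89.

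Of 25 measured myeloid genes, 13 were above background in a line and 7 in L-540, with a median difference of 0.03, or -0.12 with levels below background raised, and L-540 was highest for 5, beside 13.7% of all genes. CST3 had 8.4, CSF1R, the receptor of macrophage colony-stimulating factor, 7.65, CEBPB 9.78, ITGAX 6.92 and CEBPD 5.09. The defining markers CD14 and ITGAM were below background, at 3.28 and 3.66. As to cells that a lymphoid culture should not hold, 8 of 12 expressed markers of other cells were above the L-540 background and their median difference was 0.16. The mean level of this list was 4.17 in L-540 and 3.99 to 4.46 in the other lines. The keratin genes KRT8 and KRT18 had 5.56 and 4.91, the globin gene HBB 5.34, and ALB, CDH1 and GFAP were below background. Genes every cell uses served as a check of scale, with a median of -0.02 over 15 genes, GAPDH at 13.83 and ACTB at 13.42. GUSB, at 10.17, exceeded the other lines by 1.30. HPRT1 had 6.76 with 6.74 to 8.53 elsewhere, SDHA had 9.93 and ABL1 was lowest in L-540 at 5.87.

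Several transcription factor families contained a member that was far higher in L-540 than in the other lines. Among 21 NKL homeobox genes HLX, a factor of hematopoietic and type 1 T-cells, had 8.96 in L-540, against 4.69 in HDLM-2, 4.16 in L-428, 3.82 in SUP-HD1, 4.15 in KM-H2, 3.96 in U-HO1 and 5.05 in L-1236. It was above background in L-540 alone and at least 10.3-fold higher. The median of this family was -0.05. EMX1 and BARX2 were also highest at 5.90 each, although BARX2 led by 0.01, within the spread between probe sets. EMX1 had the opposite sign by another probe set. NKX2-2 was below background in all lines, with 3.03 in L-540. MSX1, which belongs to the same family, was below background at 3.11, while KM-H2 had 7.52. Of 24 HOX genes 13 were above background in L-540, with a median of -0.06. HOXB2 had 7.0 in L-540 and at most 4.58 elsewhere, and HOXB9 had 9.64 against 6.75 to 8.80. HOXC4 and HOXC5 were lowest in L-540 at 4.97 and 4.08, and HOXC6 had 4.08, with 9.99 in HDLM-2 and 3.90 in L-428. In the 49 other homeobox genes, with a median of -0.0017, PBX4 had 7.86 and at most 5.42 elsewhere, and SIX4 had 3.20 with 5.78 to 7.71 elsewhere. SATB1, a chromatin organiser of T-cells, had 11.12 in L-540 and 11.76 in HDLM-2. MEIS1 was below background in L-540 and in HDLM-2 and reached 7.84 in KM-H2.

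FLI1, an ETS factor of hematopoietic cells, was 1 of the 44 genes, and no other of the 21 expressed ETS genes was. It had 8.53 in L-540, against 6.26 in HDLM-2, 5.25 in L-428, 5.28 in SUP-HD1, 6.27 in KM-H2, 5.70 in U-HO1 and 5.72 in L-1236. All 3 FLI1 probe sets above background were highest in L-540, but only 1 lay at least 2 above all other lines. The FLI1 call was lost with the probe set of largest variance and with the mean of all probe sets. ETS1, which lies in the same family, was highest as well at 9.94, with 2.51 to 8.98 elsewhere. ELK3 had 8.67 and a difference of 2.79, and the 21 ETS genes had a median of 0.19. FOSL2, an AP-1 factor, had 7.83 in L-540 and at most 5.74 elsewhere, with all 5 probe sets in the same direction, and ATF5 was lowest in L-540 at 5.79, against 7.07 to 10.05. JDP2 was below background at 3.46. AP-1 genes had a median of 0.36 over 19 genes. Notch pathway genes had a median of -0.28 over 30 genes. L-540 was highest for 4 of the 30, close to the share of 13.7% over all genes, and 9 of the 30 lay above the mean of the other lines. The 4 included 3 target genes of the receptors. HES1 had 8.06 in L-540 and 3.35 to 5.85 elsewhere, HEY1 8.27 against 4.33 to 7.83 and HEY2 6.33 against 2.90 to 4.86. The receptors NOTCH1 at 5.90 and NOTCH2 at 9.35 lay within the range of the others, DTX3 was below background, and the ligand JAG1 was below background at 2.46 as in HDLM-2, KM-H2 and L-1236. The network of genes studied around NKX2-2 and the TLE corepressors had a median of 0.42 over 16 genes. TLE5 and TLE2 were highest in L-540 at 9.55 and 6.55, and TLE3 was at 7.41 and TLE6 at 5.68. TLE1 and TLE4 were below background, at 3.66 and 3.03. AUTS2, a regulator of polycomb complexes, had 3.03 in L-540 and 2.97 in SUP-HD1, both below background, and 7.86 to 10.19 elsewhere. The second AUTS2 probe set above background in a line had a smaller difference of -0.44. CACNA2D2 had 6.5 and was above background in L-540 alone. INPP5D was at 6.89, PCGF5 at 7.81, DAZAP2 at 10.84 and SMURF2 at 7.13, each within the range of the other lines. For INPP5D, DAZAP2 and SMURF2 another probe set was highest in L-540, and the SMURF2 differences ran from -0.86 to 0.97. IL17RB, CACNA2D3 and SYK were below background at 4.22, 3.03 and 3.38.

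Several other pathways had individual members far from the other lines. The 35 genes of the BMP and TGF-beta pathway had a median of 0.21, or -0.14 with levels below background raised. TGFB1 was highest in L-540 at 9.0 and the receptor ACVR1 at 9.06, TGFBR3 had 5.47 against 10.07 in HDLM-2, and INHBE was below background at 2.72 against 5.24 to 8.56. The 26 Wnt genes had a median of -0.27, and FZD6, FZD1 and LEF1 were below background, while WNT5B had 7.09. The 33 receptor tyrosine kinases had a median of -0.01, or -0.43 with the probe set of largest variance. IGF1R had 8.97 in L-540 and 3.56 to 7.93 elsewhere, whereas EPHB1 had 2.52 in L-540 and 2.76 in KM-H2 and 7.58 to 10.02 elsewhere. PDGFRA was below background at 2.95 and reached 10.61 in another line. ALKAL2, which encodes a ligand of the receptors ALK and LTK, had the largest lead over the other lines in the deposited levels, 8.01 against 7.26 for GZMB, and stood behind GZMB and NKG7 after raising. It had 11.15 in L-540, against 2.90 in HDLM-2, 2.64 in L-428, 2.88 in SUP-HD1, 3.08 in KM-H2, 2.77 in U-HO1 and 3.14 in L-1236. L-540 was thus at least 47.2-fold higher. ALK and LTK themselves were not above background in L-540, at 3.46 and 4.51. Interferon-stimulated genes were split. Their median was 0.16 over 41 genes, or 0.62 with the probe set of largest variance, L-540 was highest for 8, beside 13.7% of all genes, and IFITM2, a membrane protein that restricts virus entry, had 12.14 in L-540, against 6.92 in HDLM-2, 9.11 in L-428, 4.51 in SUP-HD1, 9.34 in KM-H2, 8.28 in U-HO1 and 6.64 in L-1236. IFITM3 and IFITM1 followed with 11.24 and 11.82, and HERC5 had 9.33 in L-540 and 9.34 in HDLM-2. IFITM1, IFITM2 and IFITM3 are near-identical in part, so that their probe sets may share transcripts. On the other hand EPSTI1 was 1 of the 28 genes, at 4.84 against 7.24 to 9.77, and IFIT2, IFIT3, XAF1 and MX2 were below background at 3.11, 3.38, 2.80 and 3.91.

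**Figure D4:**
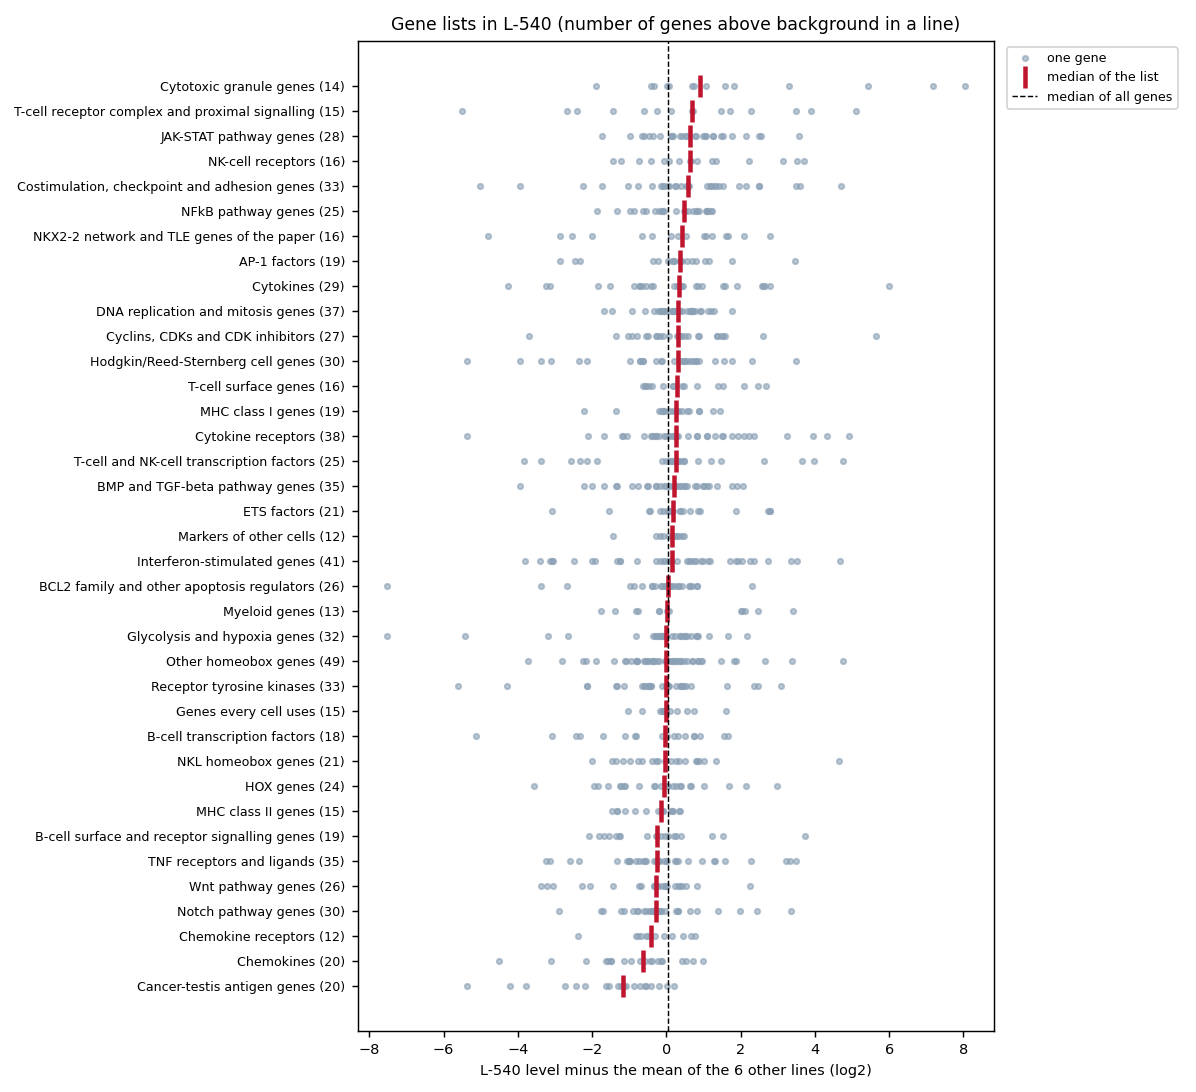
Difference of L-540 from the mean of the 6 other lines (log2) for every gene above background in a line, in each of the 37 gene lists, ordered by the median. Points are genes, red bars are medians, numbers in brackets are genes per list and the dashed line is the median of all genes, 0.05. Cytotoxic granule genes have the largest median at 0.91, and cancer-testis antigen genes the smallest at -1.18.

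Cyclins, CDKs and CDK inhibitors had a median of 0.31 over 27 genes. CCNA1, the cyclin A normally confined to the germ line and some leukemias, had 8.48 in L-540 and between 2.61 and 3.14 in all others. CCND3, the D cyclin of lymphocytes, had 8.71 and lay between 7.06 and 7.30 in the other lines and thus 1.41 below L-540 or more. The second CCND3 probe set had a smaller difference of 0.40, close to the spread between probe sets. CDKN2D was highest at 7.88, and CDKN2A, which encodes the tumor suppressors p16 and ARF, was at 4.71, with 4.15 in KM-H2 and 7.69 to 11.22 in the remaining lines, but 1 of its 3 probe sets was highest in L-540. DNA replication and mitosis genes were all above background, with a median of 0.31 over 37 genes. RRM2, a subunit of ribonucleotide reductase, was highest in L-540 at 12.71, and so was TK1 at 9.57, whereas the polymerase gene POLA1 was lowest at 6.20 and KIF11 was at 6.80. Apoptosis regulators had a median of 0.04 over 26 genes. BCL2L11, the proapoptotic BIM, had 3.66 in L-540, below background, and 4.79 to 9.07 elsewhere, and MCL1 was at 10.27. Cancer-testis antigen genes, silent in normal tissue except germ cells, had the lowest median. L-540 had 1 of 20 above background and a median difference of -1.18, or -0.31 against the median of the other lines, when MHC class II genes were lower. HDLM-2 and SUP-HD1 were almost as low in this list, with median differences of -1.11 and -1.03. KM-H2 had 17 of 20 above background and a median difference of 4.555. PRAME was 4.15 in L-540, below background, and 8.73 in HDLM-2, 9.05 in L-428, 10.42 in SUP-HD1, 10.29 in KM-H2, 9.53 in U-HO1 and 9.03 in L-1236. Every other line expressed PRAME, whereas MAGEB2 and MAGEB1 were also below background in HDLM-2 and SUP-HD1. MAGEA4 was below background in L-540 at 3.38 and reached 11.41 in KM-H2.

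The gene farthest below all other lines was BNIP3, a mitochondrial protein of hypoxia that mediates mitophagy. Its level was 3.20 in L-540, against 11.23 in HDLM-2, 11.53 in L-428, 9.76 in SUP-HD1, 10.97 in KM-H2, 10.30 in U-HO1 and 10.62 in L-1236. The lines other than L-540 were all at least 38.1-fold higher, and both probe sets pointed the same way. FUNDC1, a further mitophagy receptor, was also 1 of the 28 genes, at 4.84 against 7.44 to 8.62. PFKP, the platelet isoform of phosphofructokinase at the rate-limiting step of glycolysis, had 4.58 in L-540, at its background, against 10.13 in HDLM-2, 10.36 in L-428, 9.45 in SUP-HD1, 10.53 in KM-H2, 9.26 in U-HO1 and 10.29 in L-1236. The second PFKP probe set had a smaller difference of -0.78. The isoforms PFKL and PFKM were expressed in L-540 at 8.15 and 8.76, with differences of 0.49 and 0.56 from the other lines. AK4, a mitochondrial adenylate kinase raised in hypoxia, had 3.38 in L-540 and 8.18 to 10.21 elsewhere, and all 4 probe sets pointed the same way. These genes did not stand for the list of glycolysis and hypoxia genes, whose median was 0.00 over 32 genes. NDRG1, a hypoxia gene, was highest in L-540 at 8.47, and so was GPI at 12.41. SLC2A3 at 10.30, VEGFA at 9.08, HILPDA at 10.31, LDHA at 13.03 and HIF1A at 9.78 lay within the range of the other lines. ALDOC had 5.14, within a range of 3.92 to 11.67.

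**Figure D5:**
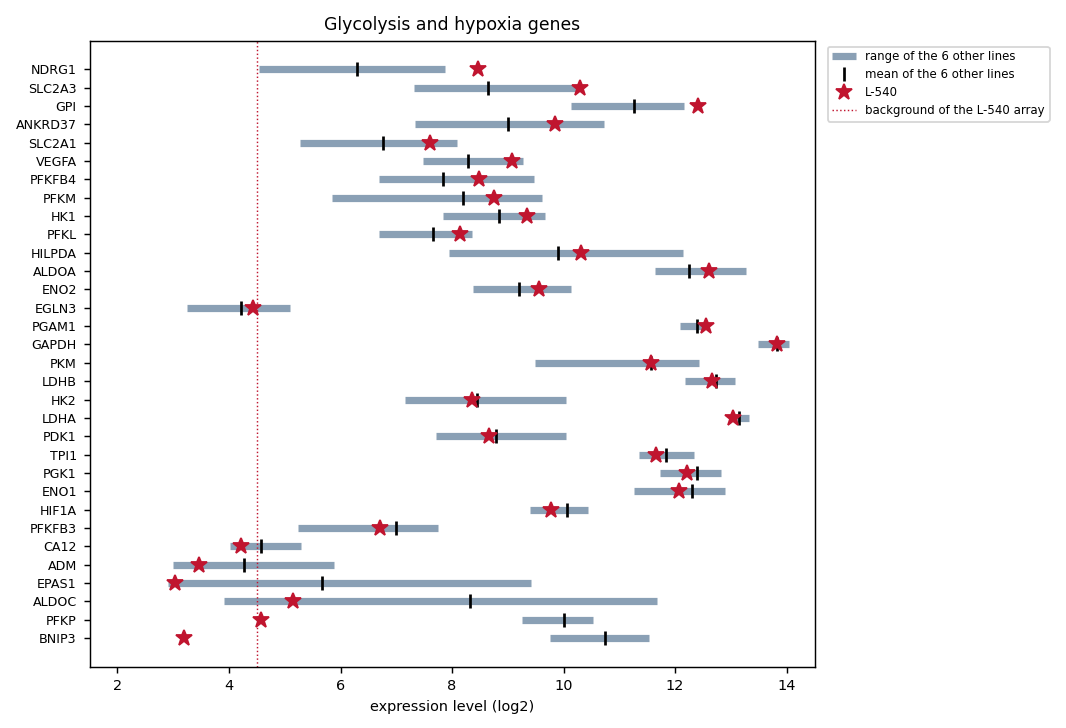
Expression level (log2) of the 32 glycolysis and hypoxia genes, ordered by the difference of L-540 from the mean of the other lines, with stars for L-540, bars for the range and ticks for the mean of the 6 other lines, and a dotted line for the L-540 background. BNIP3 at 3.20 and PFKP at 4.58 lie far to the left of the bars, and NDRG1 and GPI lie to the right.

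The sequences before the starts of BNIP3 and AK4 are shown because both genes are known targets of hypoxia-inducible factors and lay below background in L-540. They are RefSeq sequences of GRCh38.p14 with 250 bases before and 50 after the start, at chr10:131981874-131982173 on the minus strand for BNIP3 and at chr1:65147302-65147601 on the plus strand for AK4. Capitals mark the core letters of the element, ACGTG or GCGTG, on either strand, and palindromic matches count on both.
BNIP3: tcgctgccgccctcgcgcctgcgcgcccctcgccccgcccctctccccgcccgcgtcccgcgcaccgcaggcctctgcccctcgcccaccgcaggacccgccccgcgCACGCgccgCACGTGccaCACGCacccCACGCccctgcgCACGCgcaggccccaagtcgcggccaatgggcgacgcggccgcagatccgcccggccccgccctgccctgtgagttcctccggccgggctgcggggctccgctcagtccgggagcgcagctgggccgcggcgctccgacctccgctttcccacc
AK4: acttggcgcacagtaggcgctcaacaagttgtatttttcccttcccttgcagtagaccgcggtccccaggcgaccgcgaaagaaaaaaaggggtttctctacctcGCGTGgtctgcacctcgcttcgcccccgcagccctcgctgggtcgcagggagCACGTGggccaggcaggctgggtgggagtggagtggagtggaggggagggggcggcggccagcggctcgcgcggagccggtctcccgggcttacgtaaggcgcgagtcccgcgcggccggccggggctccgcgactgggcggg
BNIP3 had 6 matches and 48 CG pairs, and AK4 had 3 matches and 34 CG pairs. Such letters were found in 22 of the 32 promoters of genes above, in 13 of the 26 below and in 60.6% of those of all genes above background. Promoters with at least 20 CG pairs numbered 16 of 32 and 13 of 26 and made up 65.8% of those of all genes. ETS letters (CCGGAA) occurred in 4 promoters above, 6 below and 27.2% of all, and E-box letters (CAGCTG) in 8, 5 and 17.3%. With 32 and 26 promoters in the groups, these shares are descriptions.

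Further genes among the 44 had diverse roles. G0S2, an inhibitor of the lipase that breaks down stored fat, had 11.02 in L-540, against 3.39 in HDLM-2, 3.90 in L-428, 4.86 in SUP-HD1, 4.08 in KM-H2, 3.10 in U-HO1 and 5.70 in L-1236. GSDME, a gasdermin that forms membrane pores after cleavage by caspase-3 or granzyme B, had 10.41 in L-540 and 2.97 to 3.36 elsewhere, being below background in every other line and at least 28.2-fold higher. GALNT3, an enzyme of O-glycosylation, had 9.04 and at most 4.43 elsewhere, and PDE4DIP, a scaffold protein of the centrosome and Golgi, had 9.71 with 6.26 in HDLM-2. KLF7, a Krüppel-like transcription factor, had 9.27 and at most 5.95 elsewhere. RNF144A at 8.75, SMIM43 at 8.62, EVA1A at 8.45, STEAP1 at 8.45 and GPAT2 at 8.23 were above background in L-540 alone. So were PTGIS, the prostacyclin synthase, at 8.61, and GJA1, the gap junction protein connexin 43, at 8.14. PLA2G2D, a secreted phospholipase, had 8.44 and SLC26A4, an anion exchanger, 9.19. PLOD2, a lysyl hydroxylase of collagen, had 10.29 with 7.73 in L-1236 and 7.63 in KM-H2, and GYG1, the primer of glycogen synthesis, had 11.32 with 7.59 to 8.79 elsewhere. PCOLCE2, PLOD2 and GYG1 lie on chromosome 3 in this order, 6 and 9 gene positions apart, and PLAUR and KCNN4 lie 3 positions apart on chromosome 19. The remaining genes of the 44, which were named after their values were seen, are PLAUR, SPINK6, PCOLCE2, NEFH, IQGAP2, TCN2, LOC374443, LPL, CMAHP, PPP1R16B, FMNL1, KCNN4 and FURIN, whose L-540 levels ran from 7.74 in PPP1R16B to 10.27 in CMAHP.

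The other genes far below all lines were likewise of many kinds. RAB13, a small GTPase of membrane traffic, had 4.44 in L-540, against 10.56 in HDLM-2, 10.13 in L-428, 11.95 in SUP-HD1, 10.51 in KM-H2, 9.50 in U-HO1 and 10.63 in L-1236. RGS1, a brake of chemokine receptor signalling in lymphocytes, had 2.58 against 8.24 to 10.57, and GNG2, a subunit of G proteins, had 2.35 against 8.51 to 10.51 although 1 of its 4 probe sets pointed the other way. PTGER4, a receptor of prostaglandin E2, had 6.89 against 9.92 to 11.16 and was the gene of this group with the highest L-540 level. LACTB, a mitochondrial protease, had 3.03 and at least 8.2 elsewhere. SMARCA2, the ATPase BRM of the SWI/SNF chromatin complex, had 4.78 against 7.86 to 10.61, with 5 of 6 probe sets in this direction. SEPTIN11 at 3.73, RNASET2 at 5.03 and B4GALT6 at 2.52 complete the genes with the largest distances. The rest of the 28, named after their values were seen, are TSPYL4, TMEM9, CAMK4, TTC39A, WASHC2C, NEK6, KRT7, SH3KBP1, UPRT, ARHGAP21 and SC5D. Their L-540 levels ran from 2.41 in CAMK4 and UPRT to 6.33 in SH3KBP1.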

How the data were processed

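Total RNA of 7 HL cell lines had been extracted with Trizol, labelled as biotinylated cRNA and hybridised to Affymetrix HG U133 Plus 2.0 arrays, 1 per line. The deposited values are log2 expression levels that the authors computed by RMA, with background correction of the intensities followed by quantile normalization, using the R packages affy and limma (versions not given in the sources used here). Although the methods mention ratios to the sample mean, the deposited values are levels from 1.99 to 14.17 and are not centred. The 7 columns do not share 1 distribution (SD 1.88 in L-1236 against 2.15 in L-540), although quantile normalization of all arrays together would bring them close to it. Whether the arrays were normalized together is not stated in the sources used here and was not tested. The number of arrays limits the precision.

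Probe sets were named through the platform annotation and RefSeq. Of 54675 probe sets, 41097 had 1 symbol, 1801 several and 11777 none. Among probe sets of 1 gene the one with the greatest mean level represented it, and 35 genes of 19775 (Y-linked genes and XIST) were left out. Levels, differences from the mean of the 6 other lines and distances from the nearest line were computed with Python 3.11.15, numpy 2.4.6 and pandas 2.3.3. The code for the calls was checked on simulated data whose lines differed only by noise and by added differences. That check does not bear on the calls made on the real arrays. RMA and quantile normalization compress differences near background, so that folds against such levels are lower bounds.

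The line, the 37 gene lists (1123 genes) and the rules were chosen with earlier results of these data known. The text names the 25 genes farthest above and 15 farthest below all other lines, up to 4 genes per list with the largest differences after raising, every list member at least 2 apart from all lines, and the genes of the NKX2-2 network. Further genes were named after their values were seen. Alternatives concerned the probe set, the background, the scaling, the reference, the distance and leaving out lines.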

Additional observations from a re-analysis of the deposited data

Results flagged for a closer look

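Some probe sets that carry no gene symbol, or several, were outside the comparisons of genes and stood at least 2 from all other lines in L-540. The distances given are those after levels below background were raised to it, and are lower bounds where such levels are involved. Without a symbol, 1562473_at had 10.03 in L-540 and lay 4.1 above the other lines, 1570483_at had 8.26 and lay at least 2.67 above, 236251_at had 9.73 and lay 2.13 above, and 241769_at had 8.73 and lay 2.11 above. The probe set 241756_at had 3.99, and lay at least 2.63 below the other lines. Of those with several symbols, 209978_s_at for PLG and LPA had 7.61 and lay at least 2.02 above. WASHC2A and WASHC2C could not be separated, and their probe set 212370_x_at had 4.91 and lay 2.0 below, while 214946_x_at had 4.78 and lay 2.09 below. A probe set of WASHC2C alone is among the 28 genes. The probe set 221646_s_at for ZDHHC11B and ZDHHC11 had 4.15 and lay at least 2.53 below.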

How the results depend on the processing

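No paired analysis was possible because the lines have 1 array each and share no replicate numbers. The 44 genes above all other lines in L-540 became 75 with values not raised to background, 69 without HDLM-2, 73 without L-1236, 198 at a distance of 1 and 12 at a distance of 3. The 28 genes below became 57 with values not raised, 11 with the mean of all probe sets, 119 at a distance of 1 and 11 at a distance of 3. Without L-1236 and U-HO1 together, a choice made after seeing the data, there were 89 above and 53 below. Under the other alternatives the counts ran from 31 to 56 above and from 20 to 38 below, and the lines left out in turn gave 51 to 73 above and 35 to 38 below. Of 14 alternatives at the distance of 2, 10 lost no call, among them leaving out lines, which can only add calls. Under the other 4, 16 of the 44 and 6 of the 28 genes were called each time, the latter being AK4, BNIP3, FUNDC1, PRAME, RAB13 and TSPYL4. Among these 4 was leaving out probe sets that can match several transcripts. Genes measured only by such probe sets, as G0S2, GSDME and IFITM2 were, could not be called there.

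Of 37 list medians, 19 changed sign under at least 1 alternative. The median of the T-cell receptor complex turned to -0.063 without probe sets that can match several transcripts and to -0.23 with values raised, and that of chemokine receptors to 0.053 against the median of the other lines. Differences changed sign against the median of the other lines for ACKR3 (0.11), IL17RB (0.13), LAG3 (0.43) and MAGEA4 (0.33), without probe sets that can match several transcripts for CXCR5 (0.51), TCF3 (-0.36) and ERAP1 (-0.46), and with the probe set of largest variance for EMX1 (-0.49) and ERAP1 (-0.46). Of 2265 recomputed differences 1777 moved by less than the spread between probe sets, as did 526 of 555 list medians. The cause of these changes was not tested. Signal over background limits all levels below about 5, and L-1236 had the highest background.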
